A study of Mus musculus with 12 samples.

Results

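This account compares neural stem cells depleted of JMJD3 with control cells, both kept without transforming growth factor beta (TGFb). The comparison was chosen by the sample labels and holds 6 of the 12 samples of the series. The knockdown group was 3 arrays of cells with an shRNA against JMJD3 (sh2 JMJD3 in the labels), and the control group was 3 arrays of cells with an shRNA of random sequence. Both had received vehicle, while the other 6 arrays held the same lines after TGFb at 5 ng/ml for 2.5 h. The cells came from the cerebral cortex of mouse embryos of day E12.5 and carried their shRNA stably. A knockdown with 1 shRNA sequence cannot separate loss of JMJD3 from other effects of that shRNA or of that line, and the labels do not say whether a line was 1 clone. Nor do they say whether the replicates were independent cultures, and every p-value here then reflects no more than the spread among these arrays, which can be technical. The series asks whether genes responding to TGFb need JMJD3, and the comparison described here gives the state of the lines without the stimulus.

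JMJD3 is the protein of Kdm6b. It demethylates histone H3 at lysine 27, taking away a mark that the Polycomb repressive complex 2 lays down through Ezh2 or Ezh1 and that marks silenced genes. In the developing cortex this mark lies on many genes of neuronal and glial differentiation, and JMJD3 has been linked to their activation and to transcription downstream of TGFb and of inflammatory signals.

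RNA was hybridised to 1-colour Agilent arrays, on which a labelled copy of each sample's RNA gives a brightness at probes of known genes. The 75th percentile of the signal was 3521 to 4190 on the 6 arrays. Knockdown replicate 3 stood apart with 70.2% of its probes well above background, while the other 5 arrays had 75.9% to 78.4%. Levels are log2 signals minus that percentile of the same array, so that each probe is compared only with itself. Differences are knockdown minus control in log2 units with the standard error (SE) of the fit, and a gene is said to have risen or fallen only at a Benjamini-Hochberg adjusted p under 0.05 in limma. The arrays measure bulk RNA, in which fewer cells of a type and less RNA per cell cannot be told apart. All 20 markers of neural stem cells and radial glia were well above background on all 6 arrays, and their summed signal was 30000% to 32000% of the 75th percentile in control and 29100% to 31500% in knockdown cells. The cultures therefore carried the markers of their label in both groups.

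The targeted gene, Kdm6b, was lower on every knockdown array. Its level was -0.84, -0.73 and -0.75 in control replicates 1 to 3 and -1.95, -1.90 and -1.96 in knockdown replicates 1 to 3. The groups lay far apart relative to their spread. The difference of Kdm6b was -1.16 ± 0.05 (2.24-fold lower, limma adjusted p = 1.05e-07). Replicates 1 to 3 of both groups shared slides 1 to 3, and within the slides it was -1.10, -1.16 and -1.22. The probe lies on chromosome 11 from 69212177 to 69212236 on the minus strand (mm9).

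The lines differed in many genes by small amounts and in few genes by large ones. Of 24146 genes tested, 3020 rose (12.51%) and 3702 fell (15.33%) in knockdown cells (limma adjusted p under 0.05). The median size of these changes was 0.38. All counts of list members below are to be read against the shares of 12.51% and 15.33%. Only 460 genes (1.905% of those tested) changed at least 2-fold, 285 upward (1.18%) and 175 downward (0.7248%). The arrays of the groups did not overlap for 6684 of the 6722 genes called (27.84%), but this held for 41.1% of all genes tested too. Under other processing, against which the counts of members below are to be read, the shares of all genes that rose and fell were 9.182% and 8.809% with scaling to the array median (2217 and 2127 genes) and 9.149% and 12.6% with normexp, a background correction that models background and signal jointly. They were 10.74% and 10.66% with the authors' processed values, 16.26% and 21.35% with slide as a block, 12.58% and 13.26% with quantile normalization, and 10.27% and 11.73% without knockdown replicate 3.

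Among genes with a symbol other than a clone or predicted name, and above background on all 6 arrays, the largest rises were led by St6galnac5, which adds sialic acid to gangliosides. Its level was -5.16, -4.96 and -5.15 in control and -1.71, -1.84 and -1.67 in knockdown cells, so that the groups were separated by more than 3 log2 units (difference 3.35 ± 0.10, limma adjusted p = 1.85e-08). Mgp, which encodes an inhibitor of calcification in the matrix, was at -7.99, -7.98 and -7.40 in control and at -4.43, -4.67 and -4.58 in knockdown cells. It followed St6galnac5 in size (3.23 ± 0.15, adjusted p = 9.66e-08). The control level of Mgp lies near the detection limit. The rises were 2.68 for St6galnac5 and 1.17 for Mgp with normexp background correction.

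Several of the other large rises were in genes of neurons. Scrt1, a zinc finger repressor of postmitotic neurons, rose by 2.50 ± 0.11 and Myt1l, a neuronal transcription factor, by 2.38 ± 0.14, although with normexp background correction the rises were 1.69 and 1.42. Npy1r, a receptor for neuropeptide Y, rose by 1.92 ± 0.07 from levels between -2.17 and -1.97 to -0.14, -0.16 and -0.09. Ankrd34c (2.39 ± 0.10), Tmem179 (1.96 ± 0.08) and Ccdc106 (1.92 ± 0.08) rose from levels well above background, and normexp background correction moved each by less than 0.20. Chac1, which degrades glutathione, rose by 2.27 ± 0.18, the pseudokinase gene Trib3 by 2.03 ± 0.18 and the Notch regulator gene Dtx1 by 1.92 ± 0.09. The remaining genes among the 15 with the largest measured rises were dim. They were Smco3 (2.11 ± 0.25), the myosin light chain gene Myl1 (1.95 ± 0.15), Tmem159 (1.95 ± 0.12) and the membrane protein gene Ano4 (1.89 ± 0.13), and with normexp background correction their values were 0.72, 1.02, 0.71 and 0.76. All 15 passed the test under that correction, with the authors' processed values, and without knockdown replicate 3.

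Among the 15 largest measured falls were those of a receptor gene for platelet-derived growth factors and of the gene of one of its ligands. Pdgfra was at -2.32, -2.49 and -2.37 in control and at -4.36, -4.35 and -4.38 in knockdown cells, which is -1.97 ± 0.07 (limma adjusted p = 1.85e-08). Pdgfb was at -1.28, -1.33 and -1.25 in control and at -2.85, -3.14 and -3.20 in knockdown cells, which is -1.78 ± 0.10 (adjusted p = 2.52e-07). In both genes the 3 knockdown arrays lay more than 1.5 log2 units below the lowest control array. Pdgfra marks oligodendrocyte precursors, and its ligands include the protein of Pdgfb.

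The transcription factor genes Pou3f1 and Insm1 were also among the 15 largest measured falls. Pou3f1, a POU domain factor, went from 2.46, 2.37 and 2.62 to 0.67, 0.81 and 0.73 (-1.75 ± 0.10, adjusted p = 4.08e-07). Insm1, a zinc finger factor of intermediate progenitors, went from 0.69, 0.60 and 0.81 to -1.01, -0.99 and -1.07 (-1.72 ± 0.08, adjusted p = 1.08e-07). In both genes the spread within a group was under 0.15 (SD, n = 3). The deepest falls among genes chosen in the same way were those of the carboxylesterase gene Ces2e (-2.61 ± 0.14), the putative transporter gene Slc35f3 (-2.40 ± 0.10) and the carboxypeptidase gene Cpz (-2.26 ± 0.15). Ces2e ended near the detection limit, and with normexp background correction the differences of Ces2e and Cpz were -1.11 and -1.50. Syt13, a synaptotagmin gene, fell by 2.12 ± 0.22 (-1.49 with normexp background correction). Fndc1 (-1.78 ± 0.07), Tex14 (-1.71 ± 0.12), Stx3, a syntaxin gene (-1.68 ± 0.09), Chml (-1.66 ± 0.06) and Syngr2, a synaptogyrin gene (-1.59 ± 0.06), fell from levels well above background. Sla, an adaptor of antigen receptor signalling (-1.72 ± 0.23), and Zfp618 (-1.66 ± 0.18) were dim, with -0.68 and -0.48 under normexp background correction.

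**Figure D1:**
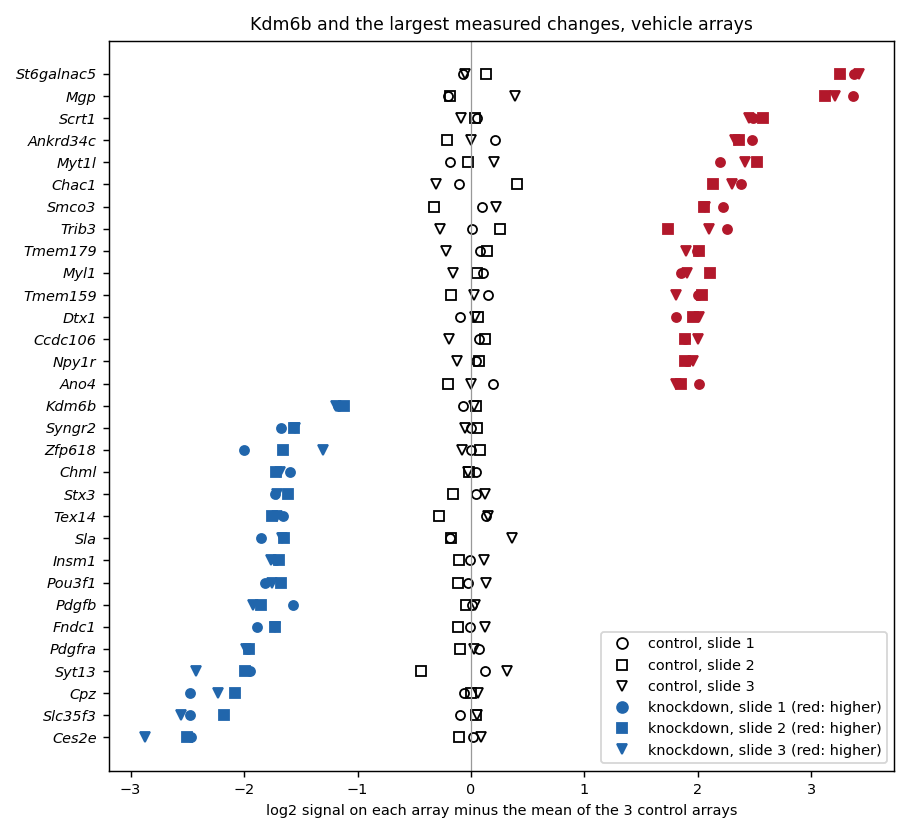
Level of Kdm6b and of the 15 genes with the largest measured rise and the 15 with the largest measured fall on each of the 6 vehicle arrays, in log2 units relative to the mean of the 3 control arrays; open symbols are control and filled symbols knockdown arrays, with 1 symbol shape per slide. The knockdown arrays of St6galnac5 lie above 3 and those of Ces2e below -2. No filled symbol reaches the open symbols of its gene, which the rule that chose the genes required of all but Kdm6b.

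Other genes appeared or vanished at the detection limit. Where no control array had a probe well above background, the rise is given as a bound, the knockdown mean set against the higher of the dim signal and the lowest signal well above background on each control array. Il20ra, a cytokine receptor gene, was at least 5.35-fold higher, the kinase gene Ikbke at least 3.94-fold, P2ry14, a receptor for nucleotide sugars, at least 3.79-fold and Ifit3b, an interferon-induced gene, at least 2.62-fold. Car10 was at least 2.46-fold and Pdgfd, a ligand gene of platelet-derived growth factor receptors, at least 2.13-fold higher. In the other direction Slc17a1 was at least 2.64-fold, Pitpnm3 at least 2.33-fold, Hils1 and Tmem74 at least 2.10-fold, Steap4 at least 1.63-fold and Niban1 at least 1.59-fold lower. These bounds rest on the scanner software's background correction. With normexp background correction the log2 differences were between 0.13 and 0.64 for the 6 genes that rose and between -0.47 and -0.26 for the 6 that fell, all under their bounds, and Ifit3b, Car10, Pdgfd, Steap4 and Niban1 lost the call. With the authors' processed values Pdgfd alone of the 12 lost it (adjusted p = 0.0632). Leaving out 1 vehicle array ended the call of Car10 (without control replicate 3), of Tmem74 (without control replicate 1 or 3 or knockdown replicate 1 or 2) and of Steap4 (without control replicate 1 or 3 or knockdown replicate 1 or 3), with adjusted p from 0.051 to 0.106.

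Among H3K27 demethylases and Polycomb subunits more genes fell than rose, and apart from Kdm6b and Ezh1 the falls were small. Of 24 measured genes of H3K27 demethylases and Polycomb subunits 2 rose and 7 fell, Kdm6b among them, where 12.51% of all genes rose and 15.33% fell, and the median difference was -0.16 against -0.02 over all genes. Ezh1, an H3K27 methyltransferase, was at -0.25, -0.41 and -0.32 in control and at -1.20, -1.20 and -1.41 in knockdown cells, a fall of 0.95 on the log2 scale (SE 0.08, limma adjusted p = 4.39e-06). After Kdm6b this was the only fall of the list beyond 0.30. Kdm6a, the other H3K27 demethylase gene, was at -2.29, -1.98 and -2.01 in control and -2.44, -2.16 and -2.20 in knockdown cells, and -0.17 ± 0.11 did not pass (adjusted p = 0.329). Ezh2 had -0.07 ± 0.05 (adjusted p = 0.319). With slide as a block the list had 3 higher and 13 lower, with scaling to the array median 0 higher and 3 lower, and with the authors' processed values 1 higher and 4 lower. Of 17 other jumonji demethylase genes, Phf2 rose (0.40 ± 0.07) and Kdm4d (-0.82) and Kdm2b (-0.22) fell. Another kept probe of Kdm2b had -0.06 and did not pass (adjusted p = 0.752).

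Many genes that TGFb signalling itself turns on, feedback inhibitors among them, were lower in the unstimulated knockdown cells. A list of TGFb feedback regulators and early targets had 19 measured genes, of which 11 fell and 1 rose, with a median of -0.42 against -0.02 over all genes. The number that fell was 8 without control replicate 3, without knockdown replicate 3 or with the authors' processed values. It was 9 with normexp background correction or without control replicate 2. Ldlrad4, which holds back Smad activation, was at -3.85, -4.03 and -3.98 in control and at -5.19, -5.07 and -5.26 in knockdown cells (-1.22 ± 0.13, limma adjusted p = 4.22e-05). Pmepa1, which has the same kind of role, was at -1.28, -1.30 and -1.38 in control and at -1.68, -1.73 and -1.81 in knockdown cells (-0.42 ± 0.05, adjusted p = 0.000145). The 3 arrays of each group lay within 0.20 of each other and apart from the other group in both genes.

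The inhibitory Smad gene Smad6 fell by 0.68 (SE 0.11), the Smad corepressor gene Tgif1 by 0.57 and Skil, another corepressor gene of Smads, by 0.54 (SE 0.11, adjusted p = 0.00269). Smad7, the other inhibitory Smad gene, had -0.54 ± 0.18 (adjusted p = 0.0419). With 1 vehicle array left out its adjusted p lay between 0.0294 and 0.144, and its call was kept only without knockdown replicate 1. The matrix protein genes Tgfbi (-0.79 ± 0.09) and Ccn1 (-0.74) and the ligand gene Pdgfb fell too. Smad7, Skil and Pmepa1 are named here after their values were seen. The Notch ligand gene Jag1, another target on the list, had a difference of 0.02 and did not pass. The 1 that rose, Ltbp1 (0.32), lost its call with normexp background correction, without control replicate 3 and without knockdown replicate 2.

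The same list was less uniform on the TGFb arrays, where 6 members fell and 2 rose. The difference of Pmepa1 there was 0.18 (adjusted p = 0.028), of Skil 0.11 (adjusted p = 0.507), of Smad7 -0.06 (adjusted p = 0.843) and of Smad6 -0.08 (adjusted p = 0.63). Ldlrad4 (-1.43) and Pdgfb (-1.68) stayed lower with TGFb. Among these 6 the effect with TGFb minus that without passed the test only for Pmepa1 (0.60 ± 0.08, adjusted p = 0.0154).

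The receptors and ligands of the family moved less, and more often upward. Of 18 measured receptor and Smad genes 6 rose and 1 fell, the receptor gene Tgfbr2 (-0.19), whose call held only without control replicate 1 when 1 vehicle array was left out, while Smad2, Smad3 and Smad4, which carry the signal, had differences of 0.04, 0.03 and 0.04 and did not pass. Bmpr1b, a type I receptor for bone morphogenetic proteins (BMPs), rose by 0.91 ± 0.07 (adjusted p = 3.55e-06), the co-receptor gene Tgfbr3 by 0.61 ± 0.12 and Acvrl1, another type I receptor gene, by 0.48. Of 21 ligand and antagonist genes 7 rose and 3 fell. Tgfb2 rose by 0.43 ± 0.08 (adjusted p = 0.00204), and Fst, which encodes the activin antagonist follistatin, by 0.70 ± 0.06 (adjusted p = 1.13e-05). The activin subunit gene Inhbb (-0.50) and the follistatin-like gene Fstl3 (-0.48) fell. Of 10 BMP target genes Id4 (0.69), Id3 (0.38) and Hey1 (0.27) rose and Smad6 fell. With normexp background correction or with the authors' processed values 2 rose and 2 fell.

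A branch of the stress response to amino acid shortage and unfolded protein was higher in part. Of 24 measured genes of the ATF4 and amino acid stress list 8 rose and 4 fell. Chac1 was at -1.70, -1.19 and -1.90 in control and at 0.78, 0.53 and 0.71 in knockdown cells, and Trib3 was at -1.58, -1.33 and -1.86 in control and at 0.66, 0.14 and 0.50 in knockdown cells. Control replicate 2 was the highest control array for both genes, and even so no knockdown array came within 1 log2 unit of it. Ddit3, which encodes the stress transcription factor CHOP, rose by 0.75 ± 0.11 (limma adjusted p = 0.000346), and Sesn2, a sestrin gene, by 0.45. Atf4 itself had a difference of 0.11 ± 0.08 (adjusted p = 0.372), and genes of serine and cysteine synthesis fell, Cth by 0.43 and Psat1 by 0.31. The number that rose was 5 without control replicate 2 or without knockdown replicate 1, and 5 with normexp background correction. Fgf21, a secreted stress hormone gene among the 8, was well above background on 1 of the 3 knockdown arrays and on 0 of the control arrays, and its call was lost under normexp and with each vehicle array left out except knockdown replicate 2.

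Of 17 chaperone and unfolded protein response genes of the endoplasmic reticulum 6 rose and 1 fell. Herpud1, a component of protein degradation at that membrane, went from -0.15, -0.02 and -0.26 to 1.02, 0.78 and 0.85 (1.03 ± 0.11, adjusted p = 5.33e-05), and the cochaperone gene Dnajb9 rose by 0.88. With scaling to the array median 3 rose and 0 fell. The abundant chaperone gene Hspa5 rose by 0.21, and Hsp90b1 (0.06) and Xbp1 (0.04) did not pass. The 2-fold changes of this stress group were thus those of Chac1, Trib3 and Herpud1 among genes above background on all 6 arrays. The promoters of Chac1 and Herpud1 both carry the amino acid response element, a site bound by ATF4 and CHOP, searched as TTGCATCA on both strands in the 250 bases before the start. The letters are in capitals below, in sequences of the RefSeq promoter table (GRCm38.p6), written 5′ to 3′ on the gene's strand. They start 193 bases before the start of Chac1 (chr2:119350992-119351241, plus strand) and 112 bases before that of Herpud1 (chr8:94386179-94386428, plus strand).
Chac1: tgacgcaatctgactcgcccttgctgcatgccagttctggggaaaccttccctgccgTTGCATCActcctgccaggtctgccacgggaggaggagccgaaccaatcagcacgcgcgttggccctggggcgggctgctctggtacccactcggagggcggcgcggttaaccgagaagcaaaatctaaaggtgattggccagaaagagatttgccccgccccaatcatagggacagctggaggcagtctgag
Herpud1: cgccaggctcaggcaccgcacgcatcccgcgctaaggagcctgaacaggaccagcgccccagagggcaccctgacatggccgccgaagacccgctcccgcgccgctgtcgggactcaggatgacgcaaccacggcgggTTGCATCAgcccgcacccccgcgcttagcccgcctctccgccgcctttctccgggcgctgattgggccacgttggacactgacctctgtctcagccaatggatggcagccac
Among the genes tested, 13585 had a promoter in the table. The element was in 0.699% of all of these promoters, in 0.689% of those of genes that rose and in 0.322% of those of genes that fell, so that it did not set the risen genes apart as a whole. In the ATF4 list 4 of 20 promoters held it, those of Chac1, Slc7a11, Fgf21 and Nupr1. Slc7a11, a cystine transporter gene, had a difference of -0.09 that did not pass.

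**Figure D2:**
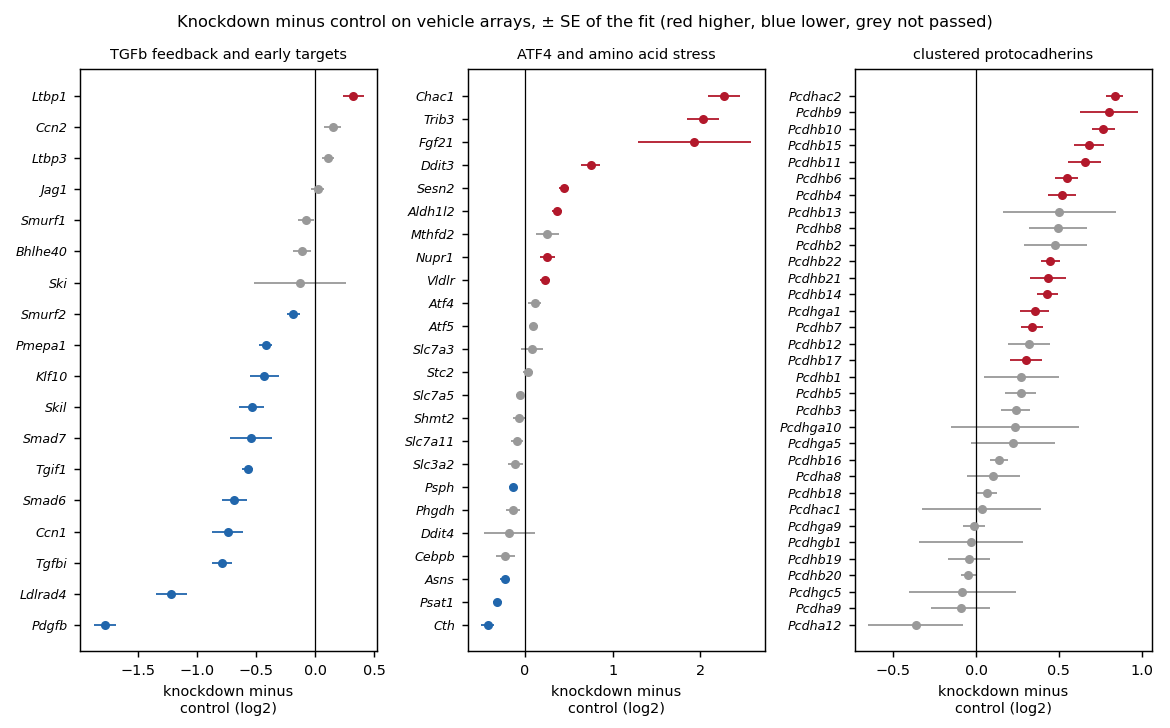
Difference of knockdown and control on the vehicle arrays (log2, ± SE of the fit) for the measured genes shown of 3 lists: TGFb feedback regulators and early targets, ATF4 and amino acid stress genes, and clustered protocadherins. Members past the test are red (higher) or blue (lower). The first panel runs from 0.32 for Ltbp1 to -1.78 for Pdgfb, and in the second Chac1, Trib3 and Fgf21 lie apart from the rest.

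Single genes of innate immunity were higher without a rise of the whole interferon response. Of 24 measured interferon response genes 6 rose and 2 fell, with a median of 0.07. Ifit3, an antiviral effector gene, went from -6.63, -6.90 and -7.19 to -5.66, -5.69 and -5.88 (1.17 ± 0.17, limma adjusted p = 0.000427), and the chemokine gene Cxcl10 from -3.75, -3.45 and -3.86 to -2.58, -2.73 and -2.76 (1.00 ± 0.13, adjusted p = 0.00014). In both, all knockdown arrays lay above all control arrays, and with normexp background correction Ifit3 rose by 0.46. Oasl2 had 1.69 ± 0.35 from a control level below background on 2 of 3 arrays, and its call was lost under normexp and in the authors' processed values. The factors that carry the interferon signal were not among the genes that rose: Stat2 fell by 0.35, Irf7 (0.04) and Irf9 (-0.00) did not pass, and the interferon-induced GTPase gene Gbp3 fell by 0.37. Without control replicate 3, without knockdown replicate 3, or with normexp background correction, 3 genes rose. Ifit3 is closely related to Ifit3b, and their probes may share signal.

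The interferon-stimulated response element, the site at which interferon-activated factors bind, was searched as GAAA, any 2 bases and GAAA on both strands in the same window and is in capitals in the promoters of these genes. Ifit3 (chr19:34583279-34583528, plus strand) holds it as its reverse complement in a pair of places, and Cxcl10 (chr5:92348890-92349139, minus strand) holds it once.
Ifit3: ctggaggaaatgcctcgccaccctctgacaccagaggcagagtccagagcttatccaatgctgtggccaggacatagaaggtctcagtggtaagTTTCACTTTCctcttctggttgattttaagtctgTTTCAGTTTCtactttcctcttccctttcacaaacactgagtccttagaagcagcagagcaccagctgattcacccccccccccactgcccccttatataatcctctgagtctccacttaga
Cxcl10: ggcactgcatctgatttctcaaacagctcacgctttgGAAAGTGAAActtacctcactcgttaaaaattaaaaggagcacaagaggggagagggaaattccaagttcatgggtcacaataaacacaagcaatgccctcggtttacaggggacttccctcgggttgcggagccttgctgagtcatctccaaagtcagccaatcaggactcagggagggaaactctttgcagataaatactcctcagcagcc
It was in 10 of the 21 interferon list promoters. Of the genes with these, Ifit3, Cxcl10 and Isg15 rose and Stat2 and Gbp3 fell, so both directions occurred among promoters with the element. Over all genes tested it was in 2.64% of promoters, in 2.30% of those of risen and in 2.62% of those of fallen genes.

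Several chemokine genes were higher as well, and genes of antigen presentation moved in both directions. Ccl12, a chemoattractant of monocytes, was at -5.36, -4.91 and -5.50 in control and at -3.92, -3.69 and -3.74 in knockdown cells (1.47 ± 0.14, adjusted p = 1.8e-05). The related Ccl7 rose by 1.01 ± 0.08 and Il33, a nuclear cytokine of glia, by 1.07 ± 0.08. Of 18 measured chemokine and cytokine genes 7 rose and 2 fell, the latter being Lif (-0.52) and Cntf (-0.36). With normexp background correction 4 rose. Csf1, one of the 7 (0.19), has 2 other probes that passed in the opposite direction (-0.50 and -0.53). Of 11 genes of antigen presentation 4 rose and 3 fell. The immunoproteasome subunit gene Psmb8 rose by 1.32 ± 0.12 (adjusted p = 1.03e-05) and Psmb9 by 0.61, and the class I heavy chain gene H2-K1 (-0.34) and the peptide transporter gene Tap2 (-0.37) fell. NF-kB feedback genes went the other way: of 11, Bcl3 rose (0.92, and 0.33 with normexp background correction) and 4 fell, led by the inhibitor gene Tnfaip3 (-0.84 ± 0.09, adjusted p = 3.95e-05) and Nfkb2 (-0.38).

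Because these genes are also active in immune cells, the markers of microglia and macrophages are given beside them. Of 13 markers 8 were measured and 1 rose, the receptor gene P2ry12 (1.04 ± 0.10, adjusted p = 1.55e-05). Aif1, C1qc and Tyrobp were not well above background on any of the 6 arrays. In contrast, 7 of the 13 markers were well above background on all 3 control arrays and 6 on all 3 knockdown arrays. The summed signal of the list was 330% to 463% of the 75th percentile in control and 351% to 385% in knockdown cells, and the groups overlapped.

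Immediate early genes, which respond to signals within minutes, moved in both directions, and among those that fell were Egr4 and Egr1. Egr4 was at -0.77, -1.11 and -0.93 in control and at -2.38, -2.24 and -2.47 in knockdown cells (-1.42 ± 0.14, limma adjusted p = 2.72e-05), and Egr1 at 1.37, 1.30 and 1.19 in control and at 0.26, 0.11 and 0.12 in knockdown cells (-1.12 ± 0.17, adjusted p = 0.000524). The groups were apart by about 1 log2 unit or more in both. Egr2 (0.23) and Egr3 (-0.05) did not pass. Jun fell by 0.77 ± 0.09, whereas Fos rose by 0.54 and Atf3, a stress-induced partner of Jun, by 1.37 ± 0.14 (adjusted p = 3.06e-05). In all 4 of 23 rose and 7 fell. Without knockdown replicate 3 these were 2 and 3, without control replicate 3 they were 2 and 5, and without control replicate 2 they were 5 and 4. Of 22 genes of FGF and ERK feedback 3 rose and 6 fell, among the latter the phosphatase genes Dusp4 (-0.40) and Dusp6 (-0.37) and the ligand gene Fgf18 (-0.66). The balance of this list depended on the processing. With the authors' processed values 5 rose and 3 fell, and with quantile normalization 4 rose and 5 fell. Ccnd1, which encodes cyclin D1, fell by 0.79 ± 0.05 (adjusted p = 1.34e-06) and Myc by 0.43.

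Notch signalling keeps neural stem cells undifferentiated, and some of its genes were higher. Of 23 measured Notch pathway genes 7 rose and 1 fell. Dtx1, a ubiquitin ligase gene that is also a Notch target, was at -2.06 ± 0.08 (SD, n = 3) in control and at -0.26, -0.10 and -0.05 in knockdown cells. The receptor gene Notch3 rose by 0.83 ± 0.06 (limma adjusted p = 1.12e-06) and the effector gene Hes5 by 0.78 ± 0.11 (adjusted p = 0.000318). The ligand gene Dll1 fell by 0.29, while Hes1 (0.04), Notch1 (-0.15), Notch2 (-0.16) and Rbpj (0.03), the DNA-binding partner of Notch, did not pass. Hey2 rose at least 1.89-fold from below background, but it did not pass under normexp (adjusted p = 0.41) or in the authors' processed values.

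In the Wnt pathway 11 of 30 measured genes rose and 4 fell, with secreted inhibitors on both sides. Wif1, which binds and blocks Wnt proteins, went from -5.67, -5.56 and -6.16 to -4.20, -4.18 and -4.13 (1.63 ± 0.14, adjusted p = 7.43e-06; 0.97 with normexp background correction). Sfrp2, another secreted inhibitor gene, rose by 1.03 ± 0.06, but the related Sfrp1 fell by 0.79 ± 0.06, each with groups that did not overlap. Wnt5a (-0.78 ± 0.07), Wnt7a (-0.61) and the feedback gene Nkd1 (-0.68) fell, whereas Wnt5b (0.93) and the receptor genes Fzd1 (0.65), Fzd2, Fzd7, Fzd9 and Fzd10 rose. Axin2 (-0.20 ± 0.86), Lef1 (0.00 ± 0.09) and Sp5 (0.02 ± 0.24), common readouts of the pathway, did not pass, Axin2 with a very wide error. Another kept probe of Axin2 was lower (-0.58, adjusted p = 0.0286). Other kept probes of Nkd1 (-0.27), Fzd2 (0.23) and Fzd7 (0.45) had the same direction as the probes used but did not pass. In the Hedgehog pathway 1 of 12 rose and 3 fell, led by the co-receptor gene Gas1 (-0.73) and the inhibitor gene Sufu (-0.55), and the readouts Gli1 (0.02 ± 0.07) and Ptch1 (-0.07 ± 0.83) did not pass. No member rose without control replicate 1 or 2 or without knockdown replicate 2 or 3.

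**Figure D3:**
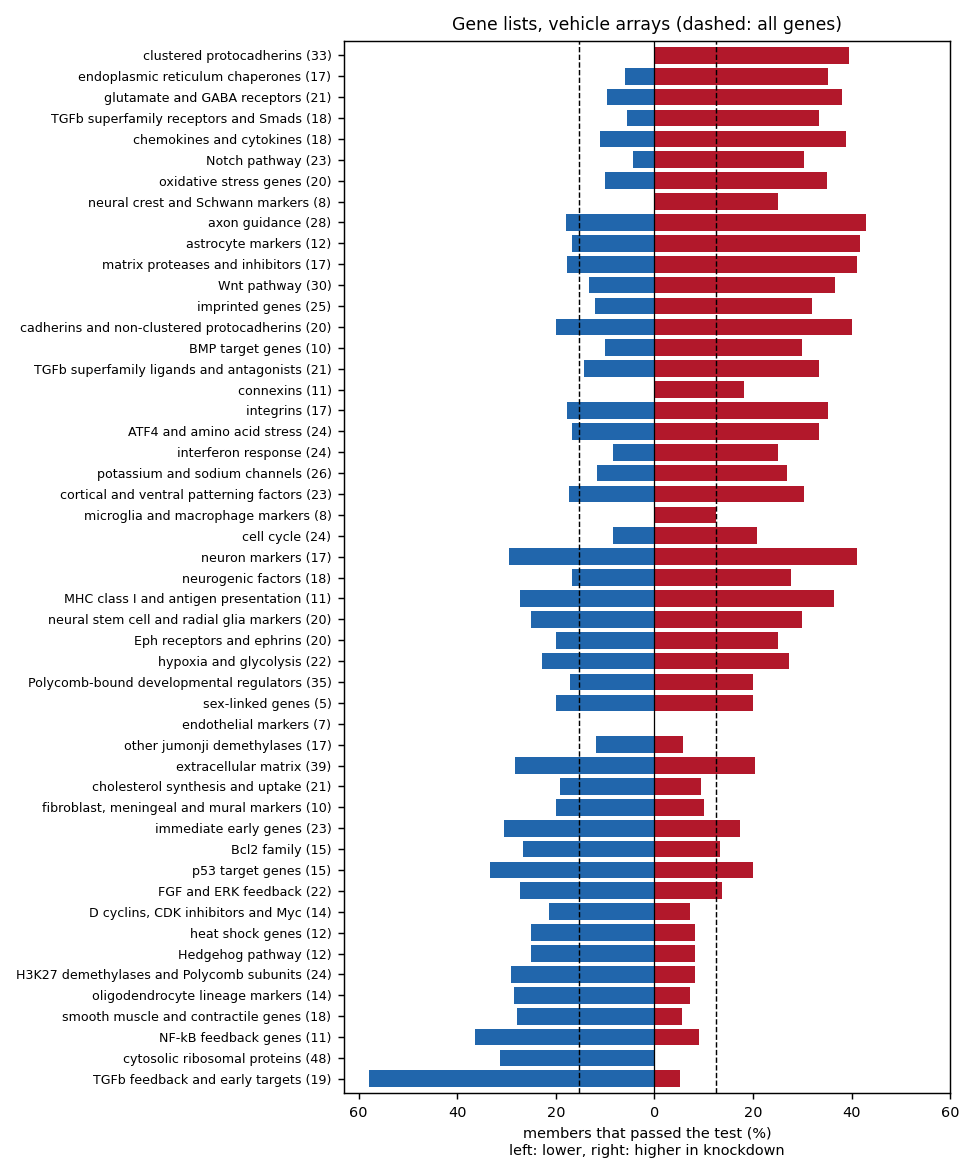
Share of the measured members of 50 gene lists that passed the test on the vehicle arrays, with higher in knockdown to the right and lower to the left; the number measured follows each name. Dashed lines mark the shares over all genes tested, 12.51% higher and 15.33% lower. Clustered protocadherins reach only to the right, and cytosolic ribosomal proteins and nearly all of the TGFb feedback list to the left.

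Stem cell markers were split. Of 20 measured 6 rose and 5 fell. Sox2, the central stem cell factor, was at 2.00, 1.94 and 1.96 in control and at 2.69, 2.71 and 2.73 in knockdown cells (0.74 ± 0.04, limma adjusted p = 3.45e-07). Its relatives Sox3 (-0.59 ± 0.08) and Sox1 (-0.37) fell, as did the intermediate filament gene Nes (-0.33 ± 0.08, adjusted p = 0.0113), which kept overlap-free groups at 5.27 to 5.39 and 4.92 to 5.08. Another kept probe of Sox1 had -0.02 and did not pass (adjusted p = 0.952). The glutamate transporter gene Slc1a3 (0.68) and the forebrain factor gene Lhx2 (0.43) rose, and Pax6 (-0.09), Hes1 and Fabp7 (0.05) did not pass. The number that fell was 3 without control replicate 1 or 3 and without knockdown replicate 2 or 3, and 2 with scaling to the array median.

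Neuron markers were split too. Of 17 measured 7 rose and 5 fell. Among those that rose were the RNA-binding protein gene Elavl3 (from -1.89, -1.99 and -2.13 to -0.77, -0.76 and -0.70, a rise of 1.26 ± 0.06), the microtubule protein gene Dcx (1.13 ± 0.21), the synaptic genes Syt1 (1.06 ± 0.16) and Syn1 (0.67), and Nefm and Gap43. Among those that fell were Rbfox3, which encodes the nuclear antigen NeuN (from -3.66, -3.79 and -3.66 to -5.03, -4.85 and -5.06, a fall of 1.28), the cortical layer factor gene Bcl11b (-0.92 ± 0.11), Reln (-0.60) and Gad1 (-0.53). Tubb3 (-0.04), Map2 (0.11) and Snap25 (-0.08) did not pass, and Slc17a7 and Gad2, which mark excitatory and inhibitory neurons, were not well above background on any of the 6 arrays. With normexp background correction the rise of Dcx was 0.39 and the call of Reln was lost. The summed signal of the list was 3440% to 3840% of the 75th percentile in control and 4110% to 4420% in knockdown cells, with no overlap. Of the neurogenic factors, 5 of 18 rose and 3 fell, from Btg2 (0.91) to Insm1. The number that rose was 1 without control replicate 3, 2 without control replicate 2 and 3 without control replicate 1 or knockdown replicate 3.

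Astrocyte markers were higher in 5 of 12 and lower in 2. Apoe, the main lipid carrier of the brain, went from -0.06, 0.12 and 0.05 to 1.13, 1.26 and 1.20 (1.16 ± 0.09, adjusted p = 4.06e-06), and Gfap, the filament gene of astrocytes, from -5.20, -4.97 and -5.28 to -4.22, -4.07 and -4.22 (0.98 ± 0.11, adjusted p = 4.42e-05). Clu fell by 0.47, and Aqp4 (-0.05), S100b (-0.12) and Aldh1l1 (0.11) did not pass. Without any 1 vehicle array except control replicate 3, 1 fell. The summed signal was 13000% to 14900% in control and 15300% to 15800% in knockdown cells. Of 14 oligodendrocyte lineage genes 1 rose and 4 fell, Pdgfra by far the most, Olig2 by 0.29 ± 0.05, while Sox10 (0.09) and Cspg4 (0.20) did not pass. The summed signal of that list was 4870% to 5240% in control and 4380% to 4600% in knockdown cells. Without control replicate 1 or 3, without knockdown replicate 1 or 3, or with normexp background correction, 2 of its genes fell.

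Markers of endothelial, fibroblast and mural cells and of the neural crest were also measured. Of 7 measured endothelial markers none passed, 1 fell with slide as a block, and Cdh5, Tie1 and Erg were not well above background on any of the 6 arrays. Their summed signal was 76.6% to 89.1% in control and 77.1% to 83.8% in knockdown cells. Of 10 measured fibroblast, meningeal and mural markers Foxc1 rose (0.33) and Col1a1 (-0.48) and Acta2 (-0.25) fell, of which 1 did with normexp background correction or without any 1 vehicle array except control replicate 1, and Lum, Pdgfrb, Twist1 and Foxd1 were not well above background. The summed signal of that list was 550% to 598% in control and 639% to 727% in knockdown cells, ranges that do not overlap. Of 8 measured neural crest and Schwann cell markers 2 rose, among them Ednrb (0.19), and 0 fell, with 3 higher with slide as a block, 1 with normexp background correction, scaling to the array median or the authors' processed values, and 0 without knockdown replicate 2. Their summed signal was 659% to 680% in control and 691% to 760% in knockdown cells, also without overlap, and Foxd3 and Tfap2b were not well above background on any of the 6 arrays. The part of such cells in the rise of Mgp and of the chemokine genes was not tested.

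**Figure D4:**
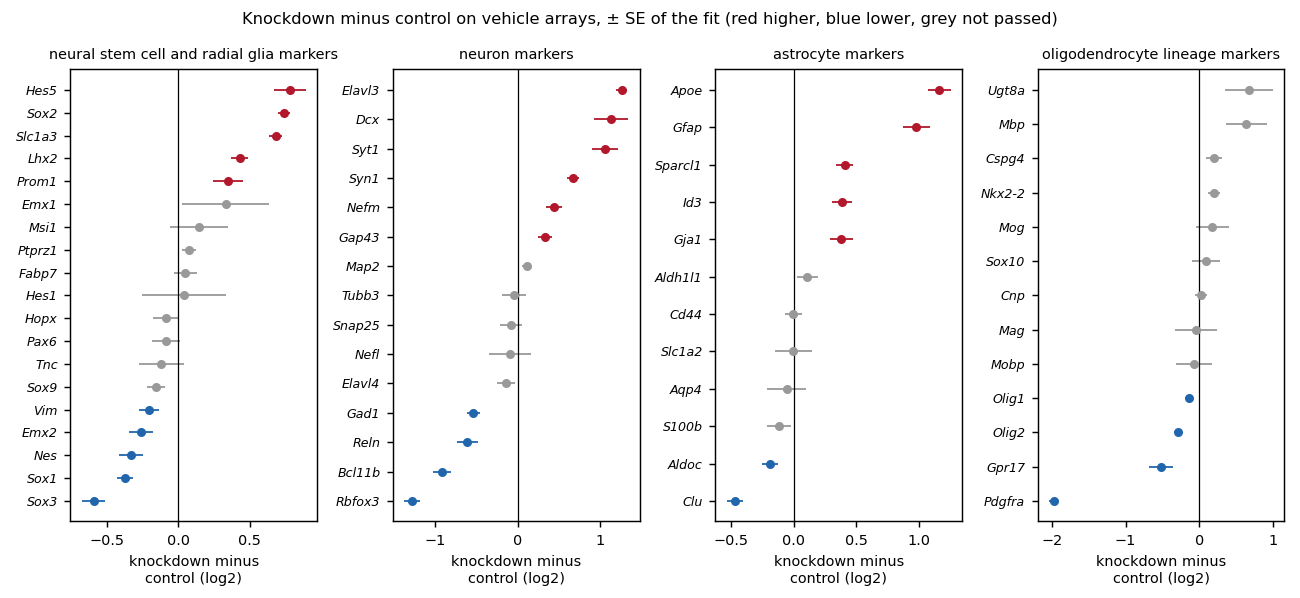
Difference of knockdown and control on the vehicle arrays (log2, ± SE of the fit) for the measured markers shown of neural stem cells and radial glia, neurons, astrocytes and the oligodendrocyte lineage. Genes that rose are red and genes that fell are blue, and the first 3 panels hold both, from Elavl3 at 1.26 to Rbfox3 at -1.28 among neuron markers and down to Pdgfra at -1.97.

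Genes of the neuronal surface rose in several families. Protocadherins of the clustered kind, which give neurons their surface identity, rose in 13 of 33 measured members and fell in 0, with a median of 0.30 against -0.02 over all genes. Pcdhac2 was at -2.50, -2.53 and -2.58 in control and at -1.70, -1.67 and -1.73 in knockdown cells (0.84 ± 0.05, limma adjusted p = 6.05e-07), and Pcdhb10 at -2.64, -2.65 and -2.74 against -1.86, -1.88 and -1.99 (0.77 ± 0.07, adjusted p = 1.34e-05). In both the spread within a group was under 0.10 (SD, n = 3). Of the 13, 11 belong to the beta cluster, and the others are Pcdhac2 and Pcdhga1 (0.35), while 25 of the 58 listed genes were not measured. Members of this family resemble each other closely, and their probes may share signal. With normexp background correction 9 rose, and with TGFb 15 rose and 0 fell.

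Of the non-clustered protocadherins and cadherins, 8 of 20 rose and 4 fell. Pcdh9 rose by 1.10 ± 0.07 and Pcdh10 by 0.96, while Pcdh8 fell by 1.06 ± 0.10 (adjusted p = 1.64e-05). Glutamate and GABA receptor genes rose in 8 of 21 and fell in 2: the AMPA receptor subunit gene Gria1 went from -4.62, -4.46 and -4.71 to -3.40, -3.36 and -3.60 (1.14 ± 0.10, adjusted p = 1.26e-05), the metabotropic receptor gene Grm5 rose by 0.91, while Gria3 fell by 0.36. The count was 8 and 2 without each vehicle array in turn. Among potassium and sodium channel genes 7 of 26 rose and 3 fell, among them Kcnk1, a potassium channel gene, which fell by 0.98 ± 0.06 (adjusted p = 6.12e-07). With normexp background correction 4 rose and 1 fell, and 1 fell without control replicate 3 or knockdown replicate 1 or 2.

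Axon guidance genes rose in 12 of 28 and fell in 5. The repellent gene Sema3a (0.59), its receptor gene Nrp1 (0.55), Unc5c (0.50) and Robo1 (0.47) rose, and Sema3e (-0.91 ± 0.16), Sema3d (-0.67) and the netrin receptor gene Dcc (-0.50) fell. Without control replicate 3 or without knockdown replicate 1, 8 rose, and without control replicate 1 or knockdown replicate 1, 3 fell. Of 20 Eph receptor and ephrin genes 5 rose and 4 fell, with Epha2 at 0.98 ± 0.11, Efnb2 at 0.78 ± 0.05 and Efnb1 at -0.47. Without control replicate 2 or 3, and without knockdown replicate 1 or 2, 3 rose.

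The extracellular matrix list moved in both directions. Of 39 measured genes 8 rose and 11 fell, with Mgp far ahead. Spp1, which encodes osteopontin, rose by 1.01 ± 0.07 (limma adjusted p = 1.88e-06), and the basement membrane gene Nid1 by 0.57. The collagen genes Col6a1 (-0.69 ± 0.06, adjusted p = 1.39e-05), Col4a1 (-0.59) and Col6a2 (-0.57), Sparc (-0.51) and the brain matrix gene Tnr (-0.86) fell, and Fn1 (-0.14) did not pass. With normexp background correction 5 fell, and without knockdown replicate 3 it was 7. Of 17 matrix proteases and their inhibitors 7 rose and 3 fell, with the membrane-bound protease gene Mmp14 at 1.05 ± 0.15, Adamts1 at 1.00 and the inhibitor gene Timp2 at -0.35. Of 17 integrin genes 6 rose, led by Itgav (0.71) and Itga5 (0.62), and 3 fell, led by Itga3 (-0.69). Among 18 contractile genes the myosin light chain gene Myl9 fell from 2.20, 2.39 and 2.18 to 1.03, 1.08 and 1.03 (-1.21 ± 0.06, adjusted p = 1.68e-07), and Actn1, an actin crosslinker gene, by 0.96. There 1 rose and 5 fell, but 3 fell without any 1 control array or knockdown replicate 2, and 2 without knockdown replicate 1. Connexin genes rose in 2 of 11, Gjc1 (0.55) and Gja1 (0.38).

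Of 24 cell cycle genes 5 rose and 2 fell, the cyclin gene Ccne1 rising most (0.60), while Mki67 (0.17), Cdk1 (0.12) and Ccnb1 (0.05) did not pass. Without control replicate 1 or knockdown replicate 3, 3 rose. Of 15 p53 target genes 3 rose and 5 fell. Perp, an adhesion and cell death gene, fell from -1.71, -1.78 and -1.67 to -3.16, -2.99 and -3.09 (-1.36 ± 0.07, limma adjusted p = 1.77e-07), the cell death gene Bbc3 rose by 0.74, and Cdkn1a (0.07) did not pass on the probe used, while another kept probe of Cdkn1a was lower (-0.98, adjusted p = 2.89e-05). In the Bcl2 family the survival genes Bcl2l1 (-0.73 ± 0.07, adjusted p = 1.69e-05), Bcl2l2 (-0.42) and Bcl2 (-0.27) fell and Bbc3 and Bid (0.46), which promote cell death, rose. Another kept probe of Bcl2l2 had -0.08 and did not pass (adjusted p = 0.977). In all 2 of 15 rose and 4 fell.

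Metabolic and stress lists were mixed. Of 22 hypoxia and glycolysis genes 6 rose and 5 fell, with Ero1a (0.99 ± 0.09), the mitophagy gene Bnip3 (0.90) and Vegfa (0.46) up and the vasodilator peptide gene Adm (-0.93 ± 0.14) and Ndrg1 (-0.76) down. Without control replicate 2 or knockdown replicate 1, 3 fell. Oxidative stress genes rose in 7 of 20 and fell in 2, led by the glutathione transferase gene Gsta4 (1.07 ± 0.08, adjusted p = 1.87e-06). There 4 rose and 0 fell with scaling to the array median, and 0 fell without control replicate 3 or knockdown replicate 1. In the cholesterol list 2 of 21 rose and 4 fell, but 4 rose and 2 fell with quantile normalization, and 3 rose and 2 fell with the authors' processed values. The lipid exporter gene Abcg1 was lower by at least 1.5-fold, since no knockdown array had it above background, and its partner Abca1 rose by 0.57. Of 12 heat shock genes Hspb8 rose (0.55) and 3 fell, led by Hspb1 (-0.35), and without control replicate 3 or knockdown replicate 1, 1 fell.

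Cytosolic ribosomal protein genes had small differences of 1 sign. Of 48 measured 15 fell and 0 rose, and all 48 differences lay between -0.31 and -0.06, with a median of -0.18. Rps19 had the largest fall of the list, from 3.55, 3.59 and 3.60 to 3.24, 3.26 and 3.29 (-0.31 ± 0.05, adjusted p = 0.00116). How many passed depended on the processing. With slide as a block it was 36, with scaling to the array median 2, with the authors' processed values 1 (median -0.05), and with quantile normalization 2 fell and 1 rose. Without control replicate 3 or knockdown replicate 2 it was 8.

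Developmental regulators that Polycomb commonly binds moved in both directions. Of 48 listed 35 were measured, 7 rose and 6 fell, where 12.51% of all genes tested rose and 15.33% fell, and the median was -0.05. The homeobox gene Hoxb6 rose by 0.98 ± 0.14 (limma adjusted p = 0.000308), with Irx2 (0.63) and Hoxa2 (0.47), whose call was lost with normexp background correction, while Tbx3 (-0.78 ± 0.07) fell. Foxf2, another of the 6, was not well above background on any vehicle array and has no measured fold. Of 23 cortical and ventral patterning factors 7 rose and 4 fell, with Zic2 (0.86 ± 0.16) and the POU factor gene Pou3f2 (0.66) above and Pou3f1 below. Without control replicate 3 or any 1 knockdown array, 2 fell. Imprinted genes rose in 8 of 25 and fell in 3, with Usp29 (0.67) and the growth regulator Igf2r (0.32) above and Dlk1, a Notch-like inhibitor of differentiation, below (-0.96 ± 0.13, adjusted p = 0.000185). Without control replicate 3 or knockdown replicate 3, 5 rose, and with normexp background correction 4.

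The 6 TGFb arrays gave a second measurement of the same lines on other arrays. Of the 6722 genes called without TGFb 6609 (98.3%) had the same sign with TGFb, 5199 passed there in the same direction (77.3%) and 6 passed in the opposite direction. Among genes not called without TGFb the sign agreed for 68.2%. Both comparisons use the same lines and slides 2 and 3, so they are not independent measurements of JMJD3 loss. With TGFb the control arrays lay on slides 2, 3 and 4 and the knockdown arrays on slides 3, 4 and 4, so that comparison is not balanced over slides. Of the 460 genes with at least a 2-fold change 457 kept their sign. The other 3 were Atoh7, Spire2 and LOC100045102, named after their values were seen, with -1.15, -1.39 and -1.16 without TGFb and 0.09, 0.19 and 0.30 with it. In all 6998 genes (28.98%) passed with TGFb, 12.02% upward and 16.96% downward.

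**Figure D5:**
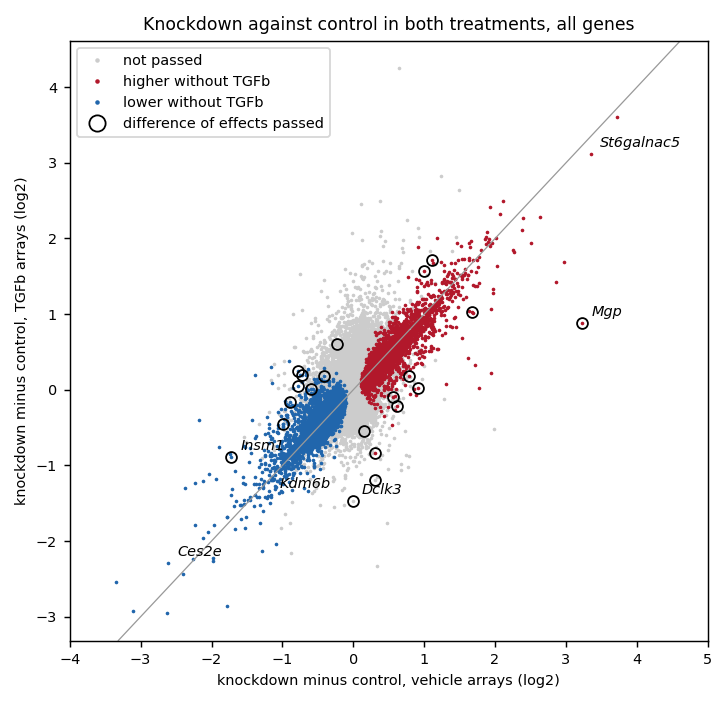
Difference of knockdown and control for each of 24146 genes on the vehicle arrays (x axis) and on the TGFb arrays (y axis), both in log2 units; the line marks equal differences and circles the genes whose 2 differences passed the test for being unequal. St6galnac5 lies near the line at 3.35 and 3.11, and Mgp lies far under it at 3.23 and 0.88.

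The test of the effect with TGFb minus the effect without called 21 genes (0.08697%). The largest was that of Mgp, whose rise was 3.23 without TGFb and 0.88 with it (difference -2.35 ± 0.21, adjusted p = 0.00259). Insm1 fell by 1.72 without TGFb and by 0.89 with it. Gas1 fell by 0.73 and Wnt5a by 0.78 without TGFb, and they had 0.20 and 0.04 with it, neither past the test there. For both the difference of effects passed (0.93 ± 0.11 and 0.83 ± 0.10).

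Probes of the same gene mostly agreed in direction. Of 2192 other kept probes of called genes 1939 (88.5%) had the same direction as the probe used. Of the 2192, 1083 passed in that direction and 41 in the opposite one. Named genes with another kept probe that had the same direction but did not pass include Irx2 (0.29), Ednrb (0.08), Isg15 (0.53) and Nid1 (0.45). Sparc (-0.42), Timp2 (-0.21) and H2-K1 (-0.17) are further examples. No chromosome stood apart: the median difference lay between -0.04 and 0.06 on each of the 21 chromosomes, and between 8.33% and 15.4% of the genes of a chromosome rose.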

How the data were processed

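The 12 one-colour Agilent mouse arrays were scanned and read with Agilent Feature Extraction 10.7.3.1, per the file headers, which subtracted background to give the deposited signal intensity of each spot. The authors' processed table holds log2 values, and each of its 12 columns correlated best with its own array's intensities (lowest r 0.963). These values differ from the intensities by more than an array-wide shift, since the rise of Mgp was 1.23 with them and 3.23 in the main fit. They served as an alternative. For the results, log2 of the processed intensity minus the array's 75th percentile was used, control and outlier spots were left out, spots of a probe were averaged, and a probe was kept if some group had it well above background on each of its arrays. Each of 24146 genes was represented by 1 of its kept probes. Of 39429 probes, 26055 were named through RefSeq and 13374 kept the array's name.

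A linear model of the 4 groups of 3 was fitted to all 12 arrays with limma 3.58.1 in R 4.3.3, with Benjamini-Hochberg adjustment over all genes. The number of arrays limits the precision, and the median SE was 0.10. On simulated data with 24078 genes the fit recovered 41.8% of changes of 0.5, 76.1% of changes of 1 and 95.5% of changes of 2 in log2 units for the comparison without TGFb, with 8 false calls. Only 67, 67 and 66 genes were changed by these sizes, and the noise was independent between arrays. In the real comparison 27.84% of genes were called and deviations were shared by slide. The simulated rates therefore do not give its power or its rate of false calls.

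The members and the gene lists were chosen with earlier results of these data known. Genes are named by a rule: Kdm6b, the 15 largest rises and falls among genes above background on all 6 arrays with groups that do not overlap and 1 sign on the 3 slides (clone, accession and predicted names left out), up to 6 bounds in each direction, up to 6 passing members per list with members that did not pass, and up to 5 differences of effects per direction. Genes outside this rule were named after their values were seen.

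Control and knockdown vehicle replicates of the same number lay on the same slide, per the file headers, which did not hold for the TGFb arrays. The deviations of these vehicle pairs from the group means correlated at 0.473, 0.582 and 0.248, against -0.466 to -0.01 for other pairs. The deviations of a group cancel out over its arrays, so positive values within slides bring negative ones for other pairs. The latter are no separate baseline. Slide as a block, normexp background correction, quantile normalization, scaling to the array median, other filters and probe rules, the arrays of the 2 groups alone and each array left out were the alternatives. Promoters came from RefSeq (GRCm38.p6). Some genes of the lists are counted but not reported here by name.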

Additional observations from a re-analysis of the deposited data

Results flagged for a closer look

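For the genes below, the knockdown effect with TGFb minus the effect without it passed the test of that difference in limma (adjusted p under 0.05 over 24146 genes). Beside Gas1, Insm1, Wnt5a, Mgp and Pmepa1 (0.60), they fall into patterns by where the knockdown difference lay. The groups hold 3 arrays each, so single arrays were not screened for outlying values. Control and knockdown arrays with TGFb were not balanced over slides, and the fit had no term for slide. Differences between slides can therefore enter these effects. With slide as a block the test called 45 genes.

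Effects that were lower without TGFb than with it were those of Rufy4 (-0.78 without and 0.25 with TGFb, a difference of 1.03, adjusted p = 0.0296), Gas1 (difference 0.93, adjusted p = 0.0104) and Gper1, a membrane estrogen receptor gene (-0.23 and 0.60, difference 0.84). Insm1 (difference 0.83, adjusted p = 0.026) and Wnt5a (difference 0.83, adjusted p = 0.0143) fell more without TGFb. Zbed5 had -0.60 without and 0.01 with TGFb (difference 0.60), and Camk2n1, an inhibitor of a calcium-dependent kinase, -0.99 and -0.45 (difference 0.54). Palmd (1.11 and 1.71, difference 0.61) and Ehd4 (1.00 and 1.57, difference 0.56) rose in both and more with TGFb.

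Effects that were higher without TGFb were led by Mgp (difference -2.35, adjusted p = 0.00259). Dclk3, a kinase gene, had -0.01 without TGFb and -1.47 with it (difference -1.46, adjusted p = 0.00259). Chst8 had 0.31 and -0.84 (difference -1.15), Diras2 0.91 and 0.03 (difference -0.89) and Cdkl4 0.62 and -0.21 (difference -0.83). Ccn2, a matrix protein gene induced by TGFb, had 0.15 and -0.55 (difference -0.69). B4galt1 (0.55 and -0.09, difference -0.65), the adrenergic receptor gene Adra2a (1.67 and 1.03, difference -0.64) and the ephrin gene Efnb2 (0.78 and 0.18, difference -0.60) were also among them.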

How the results depend on the processing

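Without TGFb, 4344 genes in all were called with scaling to the array median (4327 of the 6722 among them), 4360 at an adjusted p under 0.01 and 1674 with a change of at least 1.5-fold required, and leaving out 1 array gave 5204 to 6961. With TGFb the stricter p gave 4568 and the fold 1688. The test of the difference of effects called 7 genes with scaling to the array median, 4 at an adjusted p under 0.01, 45 with slide as a block, and 4 to 27 with 1 array left out (4 without vehicle control replicate 3). With slide as a block 9080 genes were called without TGFb, 6720 of the 6722 called without the block among them, and beyond the lists given in the report it took the call from none of the 294 called genes that are named or examined. Of those 294, 49 lost the call without at least 1 vehicle array, 51 with normexp background correction and 45 with the authors' processed values. Of the 6722 calls, 5010 were also called in the same direction with normexp, 4883 with the authors' values and 5142 to 5528 without 1 vehicle array. Among genes not called, Dclk3 without TGFb went from -0.01 to 0.0022 with the authors' values and lay between -0.1034 and 0.0593 with 1 array left out. The causes were not tested. The normexp setting also adds an offset of 50, so the parts of the background correction and of the offset in the smaller folds of dim genes cannot be told apart.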
